A study of Rattus norvegicus with 49 samples.

Results

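Transcript levels in the CA1 region of the hippocampus were compared between Fisher 344 rats at 23 months, late in life, and at 6 months, as mature adults. The comparison took the 13 arrays labelled 23 months and the 9 arrays labelled 6 months, chosen by their labels alone, which are 22 of the 49 arrays of the series. The other arrays came from animals of 3, 9 and 12 months (9 each) and served to estimate the spread between animals. Each array was hybridised with RNA from the CA1 tissue of the left hippocampus of 1 animal, so that the animals of both ages are separate and their values are unpaired. The labels give no transgene or drug treatment for either age, and all animals had been trained in the Morris water maze, in which a rat learns the place of a hidden platform, before the tissue was taken. Aged animals in poor health had been removed from the study, per the series' design text, which also gives the age of the oldest group differently in one place. Sexes are not given in the sources used here. All 8093 genes with 1 gene symbol and a signal of at least 100 on 5 or more arrays were tested. The signal is the brightness of a gene's probe set as the MAS5 algorithm computes it, in arbitrary units and scaled to the same mean on every array. The tissue was dissected in bulk, so more cells of a type and more RNA per cell cannot be told apart.

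CA1 is the field of pyramidal neurons whose axons form the main output of the hippocampus proper, and its circuit is needed for the place learning that the water maze tests. Around the neurons lie astrocytes, oligodendrocytes and microglia, the resident macrophages of the brain. Microglia take up debris, break it down in lysosomes, make the complement protein C1q and can show peptides to T cells on major histocompatibility complex (MHC) class II molecules. Genes of these functions are known to be higher in the brains of old rodents.

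Markers of CA1 were strong at both ages, and a few arrays stood apart. Median signals of the 22 arrays lay between 209.7 and 224.9, and 10193 to 10924 probe sets reached a signal of 100. Wfs1, a marker of CA1 pyramidal cells, had signals of 4123 to 6348 at 23 months and 4263 to 6550.2 at 6 months. Prox1, which marks the neighbouring dentate granule cells, ranged from 283 to 1066 at 23 months and from 286 to 888 at 6 months, a wide spread at both ages. Ttr, the transthyretin gene of the choroid plexus, stood at 16310 on 23 months replicate 11, at no more than 1123 on the other old animals and at 110.5 to 488 at 6 months. Hbb, a haemoglobin chain gene of red cells, reached 4388 in replicate 8 and 659 in replicate 5 of 23 months and no more than 64.4 at 6 months. As a sign of RNA degradation, the 3′ over 5′ ratio of probe signals was taken on the log2 scale. It averaged 0.31 ± 0.078 for GAPDH at 23 months and 0.28 ± 0.061 at 6 months (SD, n = 13 and 9). For actin it averaged 0.93 ± 0.15 at 23 months and 0.84 ± 0.13 at 6 months. Neither difference passed a two-sided exact permutation test (p = 0.404 and 0.159, both at least 0.319 after adjustment over the 2 tests).

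At 23 months 117 genes differed from 6 months at a Benjamini-Hochberg adjusted p under 0.05 in limma, 1.45% of the genes tested. Rises made up 101 of them (1.25% of the genes tested) and falls 16 (0.198%). The median size of a call was 0.37 on the log2 scale, with 0.38 among the rises and −0.25 among the falls. The median over all genes tested lay at −0.00036. Rises of more than 2-fold were found for 5 genes, of which RT1-Da, RT1-Bb and Cd74 belong to MHC class II presentation, C3 to complement and Fcgr2b to the Fc receptors, and no gene fell by that much. A threshold of 1.5-fold was passed by 20 rises and 0 falls. Without adjustment 859 genes had a p under 0.05, of which 489 were higher and 370 lower at 23 months, where uniform p-values give 405. The signals of all old animals exceeded those of all 6-month animals for 9 genes (0.111% of the genes tested), which were RT1-Da, C3, Fcgr2b, Gpnmb, Mgst1, Pld4, C1qa, Npc2 and Tmem176a. The last of these, a membrane protein gene at 960.1 to 1380 at 23 months and 662 to 909.6 at 6 months, falls outside the rule for named genes and was chosen after its values were seen. No gene was lower in all old animals than in all 6-month animals. The rises include 4 genes, RT1-Bb, Trip13, Car3 and Pira2, that met the filter of 100 on 5 arrays only through the 23-month arrays, on which they are high, and that reached 100 on no array of 6 months. All 4 were also called with no filter on signal (adjusted p = 9.44e-05, 0.0010, 1.06e-04 and 0.049 in that order).

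**Figure D1:**
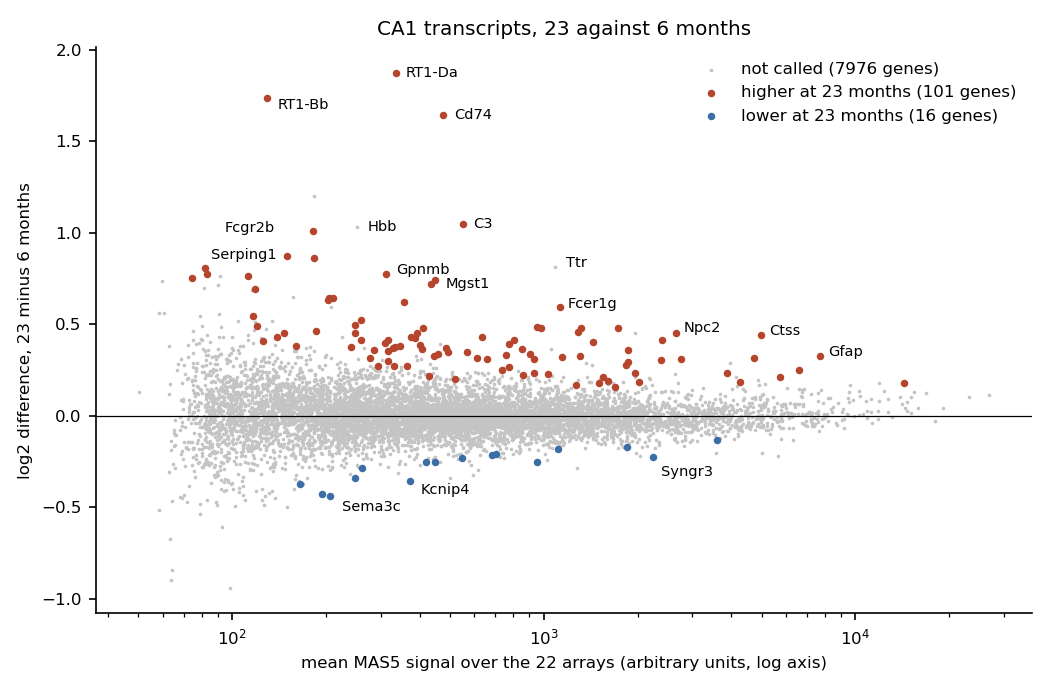
Log2 difference of 23 minus 6 months against the mean MAS5 signal over the 22 arrays (log axis), 1 point per gene. The 101 genes called higher (red) reach a difference of 1.87, whereas the 16 genes called lower (blue) reach −0.44. Hbb and Ttr, each far above the other old animals on 1 array and above the 6-month range on a few, are not called.

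The MHC class II genes showed the largest rises. The list of class II presentation genes had 7 measured members, of which 4 rose and 0 fell, with a median log2 difference of 1.20. Over all genes tested 1.25% rose and 0.198% fell, shares that also stand beside each later count of list members. Without RT1-Bb, which was tested only because of its signals at 23 months, 3 of 6 members rose, with a median of 0.82, a count added after the data were seen. RT1-Da, which encodes the α chain of the RT1-D molecule, had a lowest, median and highest signal of 204, 334 and 2382 at 23 months, against 79.9, 106 and 151 at 6 months. Every old animal lay above every 6-month animal, and 1 old animal, replicate 9, lay far above the others. Its log2 difference was 1.87 ± 0.21 (SE; adjusted p = 9.81e-09, limma), or 3.66-fold. Cd74, the invariant chain that escorts class II molecules out of the endoplasmic reticulum, had signals of 288, 536 and 2439 at 23 months, against 144, 165 and 292 at 6 months. The groups overlapped by a single old animal, and the difference was 1.64 ± 0.18 (adjusted p = 4.56e-09). RT1-Bb, the β chain of the RT1-B molecule, had signals of 90.4, 139 and 874 at 23 months, against 8.40, 44.4 and 92.1 at 6 months. Here too 12 of 13 old animals lay above all the younger ones, with a difference of 1.73 ± 0.28 (adjusted p = 3.17e-05). The signals of RT1-Bb at 6 months are low, and with signals under 64 set to 64 its difference came to 1.10 (adjusted p = 1.00e-04). Of the 49 arrays 11 reached a signal of 100 for RT1-Bb, all of 23 months.

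RT1-Ba, the α chain that pairs with RT1-Bb, did not pass the test. Its signals were 90.8, 183 and 857 at 23 months, against 24.9, 100.2 and 153 at 6 months, with a log2 difference of 1.20 ± 0.36 (adjusted p = 0.086). With signals under 64 set to 64 the difference was 1.04 and passed (adjusted p = 0.0023). Ctss, the lysosomal protease that trims the invariant chain in antigen-presenting cells, rose by 0.44 ± 0.074 (adjusted p = 7.43e-05). The genes of the peptide-loading chaperone, RT1-DMb and RT1-DMa, had differences of 0.26 and 0.05 and were not called. On 23 months replicate 9 the signal was 2439 for Cd74, 2382 for RT1-Da, 874 for RT1-Bb and 857 for RT1-Ba, while the other 12 old animals lay within 288 to 864, 204 to 470, 90.4 to 177 and 90.8 to 330. Without that animal RT1-Da, RT1-Bb and Cd74 kept differences of 1.65, 1.52 and 1.47, and 4 members of the list remained called. Cd3e, a subunit of the T-cell receptor complex, had a signal of 104 on that array and 64.7 to 147 on the other old animals. Of 19 lymphocyte genes on the array only 4 passed the filter and were measured, and 0 of these were called. That count cannot be told from the 1.45% called over all genes tested. The summed signal of the 4 lymphocyte genes was 366 to 555 at 23 months and 428 to 635 at 6 months.

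The promoters of these genes are shown because class II transcription is classically controlled through a short upstream element, the Y box, whose core is CTGATTGG. Of the 7 measured members of the list, 6 had an entry among the RefSeq promoters of rat assembly GRCr8, which run from 250 bases before to 50 bases after each start, and 3 held CTGATTGG on either strand. The same letters stand in 3.5% of all 33469 promoters. Cd74 and Ctss, which rose, and RT1-DMa, which was not called, had an entry without these letters. RT1-Ba, which was not called, had them, so the letters do not follow the calls. The windows are given 5′ to 3′ on the strand of the gene, with CTGATTGG in capitals. RT1-Da lies on the plus strand at chr20:4515303-4515400, RT1-Bb on the minus strand at chr20:4604145-4604242 and RT1-Ba on the plus strand at chr20:4576951-4577048. The first base of the capitals lies 52, 64 and 46 bases upstream of the start in that order. A match describes the letters and not a bound site.
RT1-Da: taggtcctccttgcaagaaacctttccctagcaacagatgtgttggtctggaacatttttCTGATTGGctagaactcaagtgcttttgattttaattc
RT1-Bb: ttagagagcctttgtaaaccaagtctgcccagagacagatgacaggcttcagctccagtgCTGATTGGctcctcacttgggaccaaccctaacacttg
RT1-Ba: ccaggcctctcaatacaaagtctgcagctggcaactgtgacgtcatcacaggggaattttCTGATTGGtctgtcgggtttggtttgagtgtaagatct

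Complement genes were the next group. Of 11 measured members 5 rose and 1 fell, with a median log2 difference of 0.36. C3, the central component on which all activation routes meet, had signals of 565, 656 and 1288 at 23 months, against 233, 354 and 403 at 6 months. The groups did not overlap, and the difference was 1.05 ± 0.10 (adjusted p = 1.58e-10), or 2.06-fold. Serping1, which encodes the C1 inhibitor that restrains the classical pathway, had signals of 160.4, 221 and 340.0 at 23 months, against 79.0, 119 and 194 at 6 months. The difference of Serping1 was 0.86 ± 0.13 (adjusted p = 1.48e-05), and 10 of 13 old animals lay above the whole 6-month group. The 3 chains of C1q, the recognition molecule of that pathway, rose by 0.46 (C1qa), 0.39 (C1qb) and 0.36 (C1qc), with adjusted p of 1.61e-04, 0.0031 and 0.020. C1qa had signals of 1149, 1394 and 2742 at 23 months, against 876, 1016 and 1148 at 6 months, and its groups touched without overlap. Again replicate 9 was highest for C3 and the C1q chains, at 1288 for C3 and 2742 for C1qa, where the other old animals reached 716 and 1562. Without it the differences were 0.97 for C3, 0.38 for C1qa, 0.32 for C1qb and 0.29 for C1qc, all 4 still called. The call of C1qc was lost without 6 months replicate 1, 5, 6 or 8 (adjusted p = 0.055, 0.051, 0.056 and 0.069). It was also lost in the limma fit of the 22 arrays alone (adjusted p = 0.173), where 4 members of the list rose. C1r and C1s, the proteases bound to C1q, had differences of 0.48 and 0.29 and were not called. Vtn, which encodes vitronectin, a matrix and plasma protein that blocks the terminal complement complex, fell by 0.38 on the log2 scale (adjusted p = 0.033), a call that was lost in 8 of 22 fits without 1 animal.

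All 22 measured members of the microglia list had a positive difference, where 49.9% of all genes tested had one. Of the 22 members 12 rose. The median log2 difference was 0.34, and the summed signal of the list ran from 13108 to 18187 at 23 months and from 10840 to 13620 at 6 months. Fcgr2b, the inhibitory receptor for immunoglobulin G, had signals of 152, 216 and 329 at 23 months, against 95.0, 107 and 134 at 6 months. Without overlap between the ages, its difference was 1.01 ± 0.11 (adjusted p = 2.81e-09). Fcer1g, the adaptor chain through which activating Fc receptors signal, had signals of 981, 1259 and 1814 at 23 months, against 710.2, 873 and 989 at 6 months, a difference of 0.59 ± 0.069 (adjusted p = 2.13e-08). Only 1 old animal lay within the 6-month range of Fcer1g. Cd53, a tetraspanin of leukocytes, had signals of 285, 429 and 565 at 23 months, against 233, 262 and 319.9 at 6 months (0.62 ± 0.093, adjusted p = 8.38e-06). Cyba, a membrane subunit of the phagocyte NADPH oxidase, rose by 0.35 ± 0.057 (adjusted p = 4.03e-05). The other called members besides Ctss were Aif1, Tyrobp, Rac2, Laptm5, P2ry12, Lyz2 and Csf1r, with differences from 0.27 for Csf1r to 0.52 for Aif1. They lie outside the rule for named genes and are listed to complete the count. Of the genes used to tell resident microglia from other macrophages, P2ry12 was called (0.34), whereas Cx3cr1 and Tmem119 had differences of 0.22 each and were not. Mertk and Ly86 (0.37 and 0.34) missed the threshold with adjusted p of 0.113 and 0.118. Without replicate 9 of 23 months 12 members were called.

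**Figure D2:**
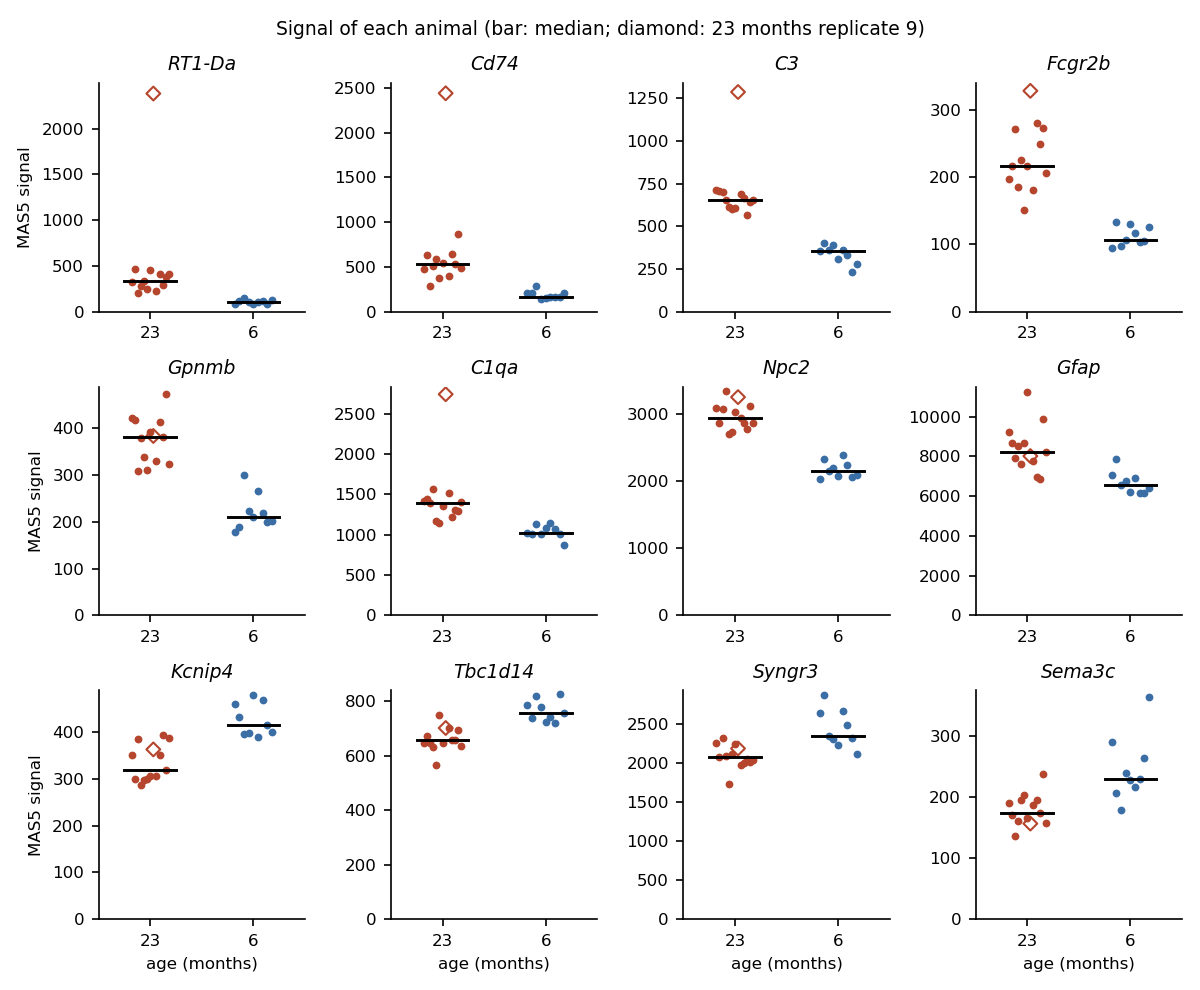
MAS5 signal of each animal for 12 genes, with 23 months (red, n = 13) left of 6 months (blue, n = 9); bars are medians and the open diamond is 23 months replicate 9. The ages do not overlap for RT1-Da, C3, Fcgr2b, Gpnmb, C1qa and Npc2, and the diamond lies above all other old animals for RT1-Da, Cd74, C3, Fcgr2b and C1qa but not for Gpnmb, Npc2 or Gfap.

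Some genes of activated phagocytes and of lysosomes rose, and most members of both lists were not called. Of 17 measured phagocyte genes 6 rose and 0 fell, with a median of 0.20. Gpnmb, a transmembrane glycoprotein of lipid-laden macrophages, had signals of 308, 382 and 473 at 23 months, against 177, 209.8 and 299.8 at 6 months. The ages did not overlap, with a difference of 0.77 ± 0.092 (adjusted p = 3.19e-08). S100a4, a small calcium-binding protein gene, had a difference of 0.72 ± 0.12 (adjusted p = 4.45e-05), and Anxa3, a phospholipid-binding annexin, one of 0.40 ± 0.059 (adjusted p = 6.35e-06). A second probe set of Anxa3 gave 0.63 and was also called (adjusted p = 3.71e-04 over every probe set). Lgals3, the galectin often measured beside Gpnmb, had signals of 71.8, 95.7 and 162 at 23 months, against 28.4, 73.2 and 92.3 at 6 months, and did not pass (0.71 ± 0.26, adjusted p = 0.227). With signals under 64 set to 64 Lgals3 had 0.48 and passed (adjusted p = 0.011), and it reached 100 on 6 arrays, all of 23 months. Spp1, Fabp5 and Lpl, further genes of lipid-handling phagocytes, had negative differences of −0.11, −0.06 and −0.29, none called.

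Of 38 measured lysosomal genes 10 rose and 0 fell, with a median of 0.12. Npc2, which carries cholesterol out of the lysosomal lumen, had signals of 2709.8, 2949 and 3345 at 23 months, against 2031, 2154 and 2386 at 6 months. All 13 old animals lay above all 9 younger ones, and its small SE (0.45 ± 0.047) gave one of the smallest adjusted p-values of the comparison, 1.38e-09. Rnaset2, a lysosomal ribonuclease, rose by 0.48 ± 0.062 (adjusted p = 3.52e-07). Lamp2, a membrane protein needed for autophagosome fusion, had signals of 1598, 1952 and 2279 at 23 months, against 925, 1462 and 1661 at 6 months, and 12 of 13 old animals lay above the 6-month range. Its difference was 0.48 ± 0.068 (adjusted p = 3.56e-06), although a second probe set of Lamp2 gave 0.13 and was not called. Cd63, a tetraspanin of late endosomes, rose by 0.36 and the proteases Ctsd and Ctsz by 0.31 and 0.64 (adjusted p = 2.29e-05, 7.04e-05 and 0.0014). The remaining calls of the list were Ctss, Laptm5, Tpp1 and Grn, of which the last 2 had differences of 0.25 and 0.23. Gm2a, a lysosomal gene outside the list, was also called higher and is given below. Fuca1 and Ctsa missed the threshold with 0.15 and 0.18 (adjusted p = 0.069 and 0.091). In the vacuolar proton pump 0 of 14 measured subunits were called, with a median of −0.003. That count cannot be told from the 1.45% called over all genes tested. The lysosome list shares Ctss and Laptm5 with the microglia list, and it shares 4 genes with the phagocyte list. Ctss is a member of the class II list as well. Over the class II, complement, microglia, phagocyte and lysosome lists together 31 different genes rose. The separate counts of these lists add up to more, because shared genes are counted again. Microglial markers were raised in the same animals, and their part in the rise of complement, class II and lysosomal genes was not tested.

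Of 16 measured genes of MHC class I presentation 2 rose, where 1.25% of all genes tested did. B2m, the light chain shared by class I molecules, had signals of 6235, 6926 and 8992 at 23 months, against 5464, 5838 and 6666 at 6 months (0.25 ± 0.042, adjusted p = 1.00e-04). Psmb9, a catalytic subunit of the immunoproteasome, had signals of 100, 126 and 221 at 23 months, against 59.3, 89.8 and 109 at 6 months (0.54 ± 0.12, adjusted p = 0.0031). Most old animals lay above the 6-month range for both. A second probe set of B2m gave 0.19 and was not called. Their partners Psme1 and Psme2, which open the proteasome, had differences of 0.20 and 0.19 and were not called (adjusted p = 0.106 and 0.069). Of 13 interferon response genes 0 were called, with a median of 0.071. That count cannot be told from the 1.45% called over all genes tested. The leading interferon response genes, Ifitm3 and Ifitm2, had differences of 0.24 and 0.18.

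Cytokine and inflammatory signalling genes had 4 calls among 22 measured, all higher, with a median of 0.12. Il33, a nuclear cytokine released by damaged glia, had signals of 549, 623 and 714 at 23 months, against 350.4, 504 and 591 at 6 months, and 11 of 13 old animals lay above the 6-month range (0.35 ± 0.063, adjusted p = 2.54e-04). A second probe set of Il33 gave 0.14 and was not called (adjusted p = 0.748 over every probe set). Stat3, the transcription factor of the interleukin-6 family, rose by 0.45 ± 0.11 (adjusted p = 0.014) with broad overlap, since 6 months replicate 9 reached 538 and only 2 old animals exceeded it. Without 6 months replicate 5 the difference of Stat3 was 0.39 with an adjusted p of 0.061, and its second probe set gave 0.22 and was not called (adjusted p = 0.449 over every probe set). Il6st, the shared receptor chain of that family, rose by 0.31 ± 0.082 (adjusted p = 0.034), a call lost in 11 of 22 fits without 1 animal. The other probe sets of Il6st gave 0.31 and 0.066, neither called. Il18, an inflammasome cytokine, rose by 0.41 ± 0.10 (adjusted p = 0.023), with adjusted p of 0.052, 0.073 and 0.062 without 23 months replicate 3, 6 months replicate 7 and 6 months replicate 8.

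Among 27 measured astrocyte genes 4 rose and 0 fell, with a median of 0.12. Gfap, the intermediate filament of reactive astrocytes, had signals of 6874, 8229 and 11251 at 23 months, against 6141, 6562 and 7846 at 6 months. The groups overlapped, with 9 of 13 old animals above the 6-month range, and the difference was 0.33 ± 0.059 (adjusted p = 2.68e-04). Vim, the other filament gene, rose by 0.43 ± 0.11 (adjusted p = 0.022), Mlc1 of the astrocyte end-feet by 0.18 ± 0.049 (adjusted p = 0.031) and Cst3, a secreted protease inhibitor, by 0.18 ± 0.048 (adjusted p = 0.034). The count of 4 depended on the arrays in the fit and on the scaling. Without 23 months replicates 5 and 8, the arrays of high Hbb, 1 member remained called, and without replicate 11 there were 5. With all animals of both ages kept, the count was 2 in the fit of the 22 arrays alone. It was 2 with each array centred on its median and 3 under quantile normalization. Vim was not called without 6 months replicate 6, 7 or 8 (adjusted p = 0.086, 0.067 and 0.070), Mlc1 in 6 and Cst3 in 11 of 22 fits without 1 animal. The glutamate transporter Slc1a3 and the calcium-binding S100b had differences of 0.14 and 0.13 and were not called, and the transporter Slc1a2 had 0.01.

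The list of antioxidant genes had 3 rises among 31 measured, where 1.25% of all genes tested rose. The glutathione transferase genes Mgst1, Gsta1 and Gstt3 lie outside the list and were also called higher. Gsta1 and Gstt3 fall outside the rule for named genes, and Gstt3 did not keep its call in every fit without 1 animal. Gstp1, a glutathione transferase, had signals of 2076, 2540.2 and 3071 at 23 months, against 1727, 2088 and 2351 at 6 months (0.30 ± 0.070, adjusted p = 0.0082). Nfe2l2, which encodes the stress transcription factor Nrf2, rose by 0.27 ± 0.063 (adjusted p = 0.012) and Gpx1, a glutathione peroxidase, by 0.28 ± 0.067 (adjusted p = 0.016), the last with an adjusted p of 0.067 without 6 months replicate 6. With the replicate number as a block in the limma fit, Nfe2l2 was not called (adjusted p = 0.092). Of 20 myelin genes 1 was called, Qdpr, which regenerates tetrahydrobiopterin (0.21 ± 0.050, adjusted p = 0.012). A count of 1 in 20 is too small to be told from the 1.45% called over all genes tested. Mobp, a structural myelin gene, had 0.17 and was not called.

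Choroid plexus genes had 1 call among 13 measured, a count too small to be told from the 1.45% called over all genes tested. Ecrg4, a secreted peptide precursor that is strong in the choroid plexus, had signals of 97.5, 137 and 218 at 23 months, against 61.3, 90.0 and 115 at 6 months (0.69 ± 0.12, adjusted p = 1.29e-04). On the array of very high Ttr, 23 months replicate 11, Ecrg4 stood at 135, within the range of the other old animals. The median of the list was 0.22 with replicate 11 and 0.019 without it, and Ttr itself had a difference of 0.81 ± 0.65 (adjusted p = 0.744).

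**Figure D3:**
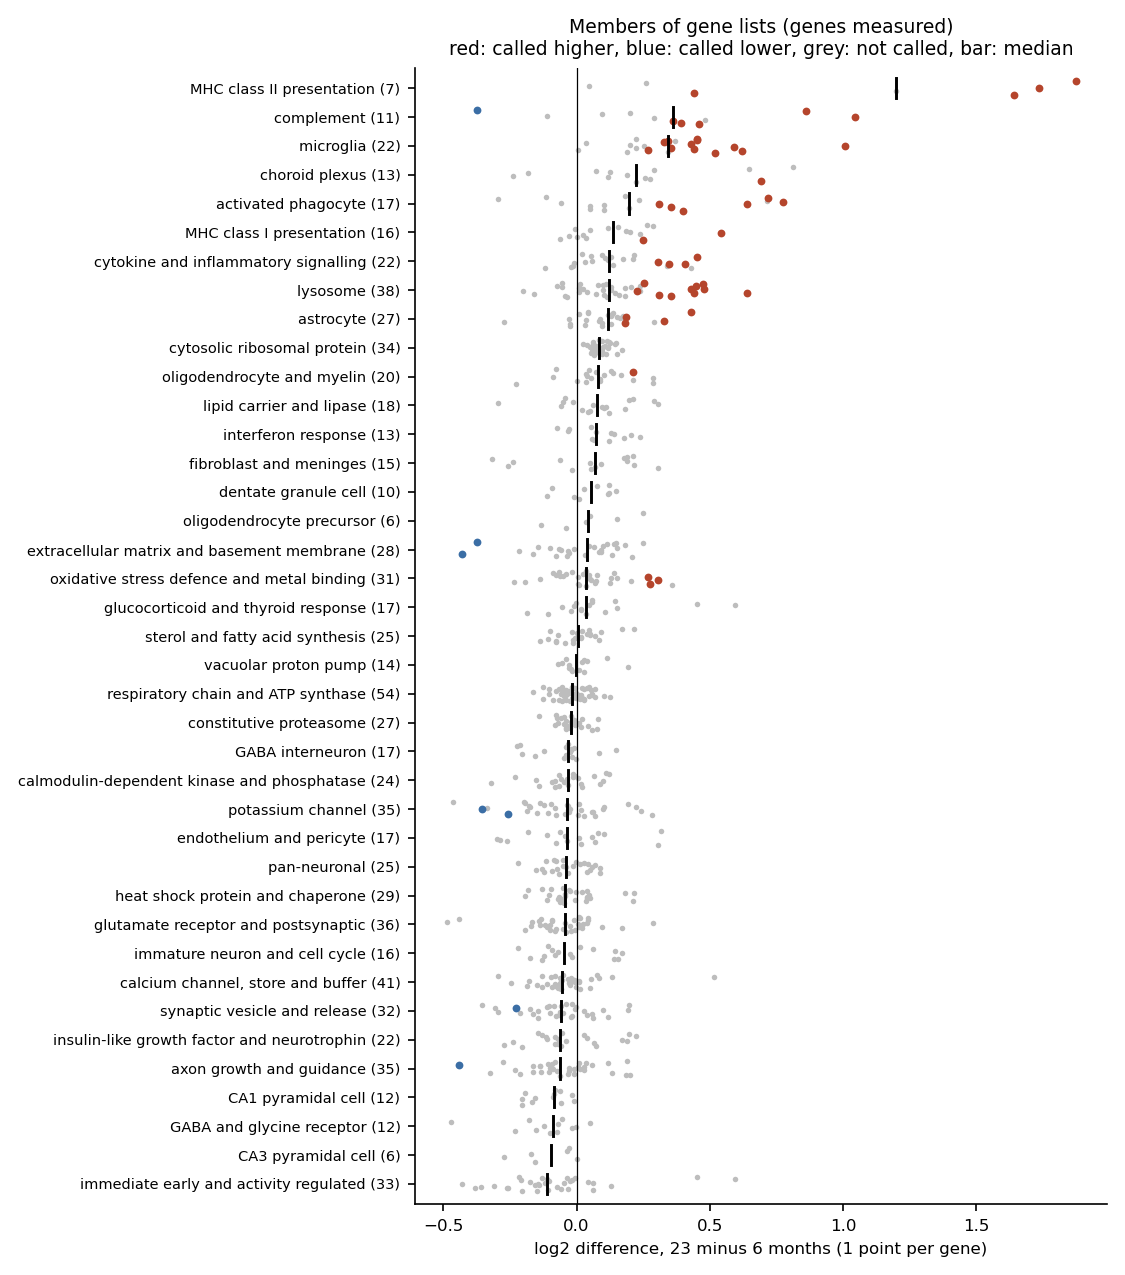
Log2 differences of 23 minus 6 months for the measured members of the gene lists with at least 5 members (1 point per gene; number measured in brackets; black bar, median), ordered by median. The class II, complement and microglia lists stand at the top with medians of 1.20, 0.36 and 0.34, and most lists of neuronal genes lie left of 0 with 0 to 2 called members.

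The remaining large rises lie in genes of several kinds. Mgst1, a membrane-bound glutathione transferase, had signals of 428, 503 and 714 at 23 months, against 274, 312 and 392 at 6 months, with no overlap (0.74 ± 0.086, adjusted p = 2.06e-08). Pld4, an endolysosomal exonuclease of myeloid cells, also showed no overlap, with signals of 197, 231 and 342 at 23 months and 120.3, 154 and 181 at 6 months (0.63 ± 0.094, adjusted p = 7.72e-06). S100a6, a calcium-binding protein gene, rose by 0.64 ± 0.14 (adjusted p = 0.0031) and Plek, the leukocyte protein pleckstrin, by 0.87 ± 0.19 (adjusted p = 0.0064). Trip13, an ATPase of the spindle and meiotic checkpoints, had signals of 50.6, 102 and 135 at 23 months, against 40.5, 59.2 and 73.4 at 6 months (0.77 ± 0.15, adjusted p = 0.0012). It reached 100 on 7 arrays of 23 months and on 4 of all other ages, so that only its signals at 23 months brought it into the test. Car3, a carbonic anhydrase, was similarly low, at 55.0, 95.1 and 114 at 23 months and 36.0, 54.4 and 73.1 at 6 months (0.75 ± 0.14, adjusted p = 3.77e-04). Car3 reached 100 on 5 arrays, all of 23 months, just the number the filter asks for. With signals under 64 set to 64 its difference was 0.43 (adjusted p = 0.0036), and that of Trip13 0.61. Without a presence call for each array it cannot be said whether such signals lie above background. Pira2, an immunoglobulin-like receptor of myeloid cells, and Aebp1, a secreted collagen-binding protein, passed narrowly with 0.81 and 0.76 (adjusted p = 0.039 and 0.048). Their calls were lost in 12 and 14 of 22 fits without 1 animal. Pira2 reached 100 on 6 arrays of 23 months and on 1 array of another age.

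The 16 falls were smaller, between −0.44 and −0.13, and the signals of the 2 ages overlapped for all of them. Kcnip4, an accessory subunit of A-type potassium channels, had signals of 288, 318 and 394 at 23 months, against 390.3, 415 and 479.7 at 6 months. Of 13 old animals 12 lay below the whole 6-month group, with a difference of −0.36 ± 0.061 (adjusted p = 1.13e-04). Kcnab1, a cytoplasmic β subunit of voltage-gated potassium channels, had signals of 743, 872 and 1015 at 23 months, against 914, 1048 and 1207 at 6 months (−0.26 ± 0.062, adjusted p = 0.014). These were the 2 falls among 35 measured potassium channel genes, whose median was −0.035, where 0.198% of all genes tested fell. Tbc1d14, a regulator of Rab proteins in autophagy, had signals of 565, 658 and 749 at 23 months, against 719.7, 757 and 827 at 6 months, with 12 of 13 old animals below the 6-month range (−0.21 ± 0.046, adjusted p = 0.0041). Cdk5r1, the activator of the neuronal kinase Cdk5, had signals of 190.2, 226 and 254 at 23 months, against 205, 288 and 332 at 6 months (−0.34 ± 0.069, adjusted p = 0.0017). These 4 genes were the falls that were called under every alternative tried and without each animal in turn.

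Sema3c, a secreted axon guidance protein, had the largest fall, with signals of 137, 173 and 238 at 23 months, against 178, 229 and 363 at 6 months (−0.44 ± 0.10, adjusted p = 0.012). Its highest signal at 6 months came from replicate 9, without which the difference was −0.37 with an adjusted p of 0.052. Col4a5, a chain of basement membrane collagen, had a difference of −0.43 ± 0.11 (adjusted p = 0.019), with an adjusted p of 0.050 and 0.058 without 6 months replicates 1 and 5. Col4a5 and Vtn were the 2 falls among 28 measured matrix genes, a count of 0 without 23 months replicates 5 and 8 and of 1 in the fit of the 22 arrays alone. Of all genes tested 0.198% fell, and of the synaptic vesicle list 1 of 32 measured genes. That gene was Syngr3, a synaptogyrin of the vesicle membrane, with signals of 1738, 2087 and 2320.4 at 23 months, against 2121, 2351 and 2879.9 at 6 months (−0.23 ± 0.053, adjusted p = 0.011). Sh3gl2, an endophilin of vesicle recycling, fell by 0.23 on the log2 scale and Clcn4, an endosomal chloride transporter, by 0.29 (adjusted p = 0.041 and 0.027). Their calls were lost in 13 and 4 of 22 fits without 1 animal. The other falls were Wdr7, Ccl27, Senp2, Ap3s1, Slc25a11 and Dclk1, whose calls were lost in 13, 14, 8, 2, 17 and 8 of those fits in that order. Of these Dclk1, a doublecortin-like kinase, had the smallest, −0.13, and its other probe sets gave 0.11 and −0.003. A second probe set of Senp2 gave −0.11 and was not called.

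Lists of neuronal identity and function held few calls, where 1.45% of all genes tested were called and 0.198% were called lower. At these shares lists of such size would hold few calls or none, so the counts do not set neuronal genes apart. For the signs given below, 49.9% of all genes tested had a positive difference. None of 12 CA1 pyramidal cell genes was called, and all 12 had negative differences, with a median of −0.087. Ccn3 and Dkk3, secreted proteins of these cells, had the smallest p-values, with −0.21 and −0.17 (adjusted p = 0.096 and 0.086). The pan-neuronal list (25 genes, median −0.041), the glutamate receptor and postsynaptic list (36, −0.042), the calcium channel, store and buffer list (41, −0.056) and the GABA and glycine receptor list (12, −0.088) held 0 calls each. Of 33 immediate early and activity-regulated genes 0 were called and 27 had negative differences, with a median of −0.11. Homer1, which scaffolds postsynaptic receptors, was not called by the probe set that represented it (−0.14, adjusted p = 0.256). Another of its 5 probe sets gave −0.49 with an adjusted p of 0.0041 when every probe set was tested. In that test further probe sets of Dlg3, a postsynaptic scaffold gene, and of Stmn2, a neuronal microtubule regulator, were also called, with −0.34 and −0.18 (adjusted p = 0.0049 and 0.043). The probe sets that represented both genes gave −0.19 and −0.22 and were not called. In the respiratory chain 0 of 54 genes were called (median −0.017). All 34 measured ribosomal protein genes had positive differences with a median of 0.084 and 0 calls, a count that was 33 under quantile normalization with a median of 0.061. In all, 15 of 42 lists held a called gene, and 65 of the 117 calls lay in no list.

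A baseline of 6 months can be set beside one of 3 months, which uses the same 23-month arrays. Against 3 months 264 genes (3.26%) were called, 195 higher (2.41%) and 69 lower (0.853%). The difference between the 2 contrasts is that of 6 against 3 months, for which 1 gene was called. That gene, Nat8f3, an N-acetyltransferase family member chosen after its values were seen, averaged 535 ± 75.8 at 23 months and 412 ± 48.2 at 6 months, against 280.3 at 3 months. Its log2 difference was 0.37 at 23 against 6 months and 0.95 at 23 against 3 months. Some of the large rises had similar sizes against both baselines, with 1.87 (6 months) and 1.97 (3 months) for RT1-Da, 1.64 and 1.65 for Cd74, 0.86 and 0.88 for Serping1, and 0.74 and 0.85 for Mgst1. Others were larger against 3 months. C3 had 1.05 and 1.35, Fcgr2b 1.01 and 1.30, and Ecrg4 0.69 and 1.05, gaps whose unadjusted p at 6 against 3 months was 0.0076, 0.017 and 0.0073. RT1-Ba had 1.20 and 2.36 and Lgals3 0.71 and 1.32, and both were called against 3 months. Sema3c fell by 0.44 against 6 months and by 0.82 against 3 months.

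Several genes were called against 6 months and not against 3 months. Trip13 had 0.77 against 6 months and 0.29 against 3 months (adjusted p = 0.0012 and 0.372), and Tcf7l2, a Wnt pathway transcription factor, had 0.27 and 0.14 (adjusted p = 0.036 and 0.380). Gm2a, the lysosomal activator protein for ganglioside breakdown, had 0.32 and 0.26 (adjusted p = 0.026 and 0.071). Pacsin3, Syngr2, Cst3, Clcn4 and Sh3gl2 had the same sign against 3 months and missed the threshold there, with adjusted p from 0.058 for Clcn4 to 0.094 for Syngr2. Without 1 animal the calls against 6 months were lost in 9 of 22 fits for Tcf7l2, 5 for Gm2a, 7 for Pacsin3, 6 for Syngr2, 11 for Cst3, 4 for Clcn4 and 13 for Sh3gl2, and that of Trip13 in 0. A second probe set of Syngr2 gave 0.14 and was not called. The opposite was seen for Hipk2, a nuclear kinase, with 0.07 against 6 months and 0.35 against 3 months (adjusted p = 0.873 and 0.013). Xdh, xanthine dehydrogenase, had 0.09 and 0.39 (adjusted p = 0.814 and 0.0052), and Phldb1, Capg, Zfp36, Niban2, Sparcl1 and Ugt8 were likewise called against 3 months and not against 6 months. For none of these genes did the difference between baselines pass the test of 6 against 3 months (adjusted p = 1.000 for Trip13, Hipk2, Xdh, Sema3c and C3).

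**Figure D4:**
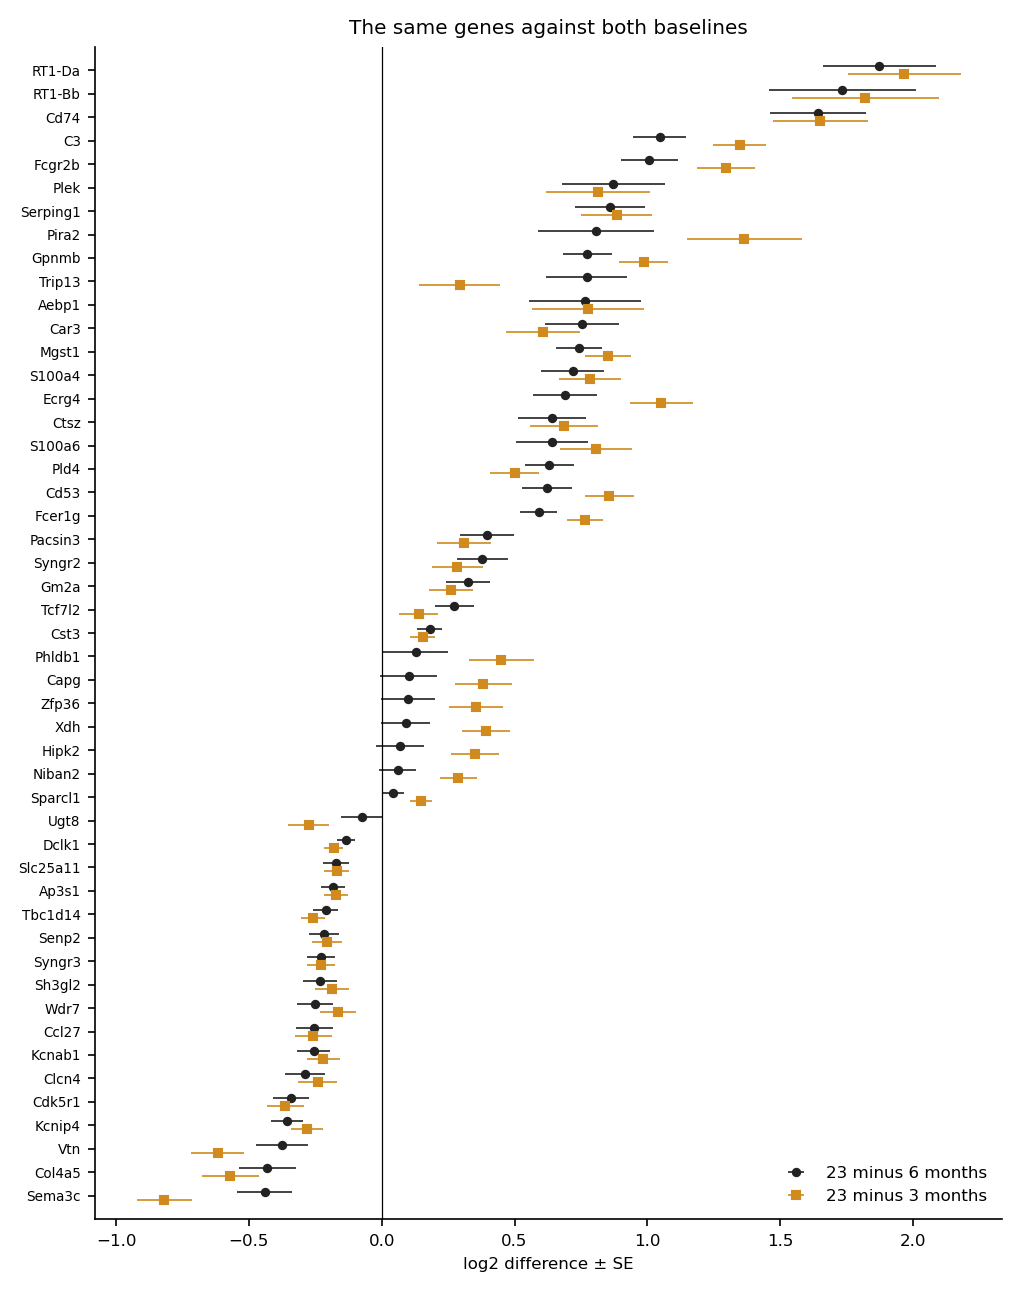
Log2 difference ± SE of 23 minus 6 months (black circles) and of 23 minus 3 months (orange squares) for the largest rises, the falls and the genes called against one baseline only. The 2 contrasts share the 23-month arrays. RT1-Da, Cd74 and Serping1 lie close together, the point of Trip13 lies farther from 0 against 6 months, and those of Sema3c, C3 and Ecrg4 lie farther from 0 against 3 months.

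Values at 12 months stood between those of 6 and 23 months in the median. The 101 rises had a median of 0.14 at 12 against 6 months and of 0.25 at 23 against 12 months, and the 16 falls had −0.098 and −0.16. These contrasts share arrays with the comparison. At 12 against 3 months, which share no array with it, 95 of the 101 rises (94.1%) were positive with a median of 0.20, where 50.9% of all genes were positive with a median of 0.0024. Of the rises 14 were called there, where 0.198% of all genes tested were called higher. Of the 16 falls 14 were negative (87.5%) and 1 was called, where 0.0247% of all genes tested were called lower.

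The genes took different courses over the ages. Cd74 averaged 183, 189, 167, 209.6 and 676 at 3, 6, 9, 12 and 23 months, so that nearly all of its rise lay after 12 months (1.48 on the log2 scale, adjusted p = 4.59e-07). Gpnmb averaged 189, 220.1, 213, 238 and 375 and rose by 0.65 after 12 months (adjusted p = 1.09e-05), and Gfap averaged 6334, 6680.0, 6408, 6901 and 8433 with 0.28 after 12 months (adjusted p = 0.0083). Gm2a differed in its means, averaging 409, 389.6, 425, 479 and 485, with 0.30 between 6 and 12 months and 0.03 after 12 months. Its step of 0.30 was not called. Of 8093 genes 0 were called higher and 1 lower at 12 against 6 months, and 27 higher and 2 lower at 23 against 12 months. Kcnip4 averaged 404.5, 427, 382, 379 and 335, with −0.17 and −0.18 in those intervals, neither of which was called. Sema3c averaged 318, 246, 237, 196 and 179, with the largest step of these means between 3 and 6 months. Of its fall after 6 months the larger part, −0.31, lay between 6 and 12 months.

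**Figure D5:**
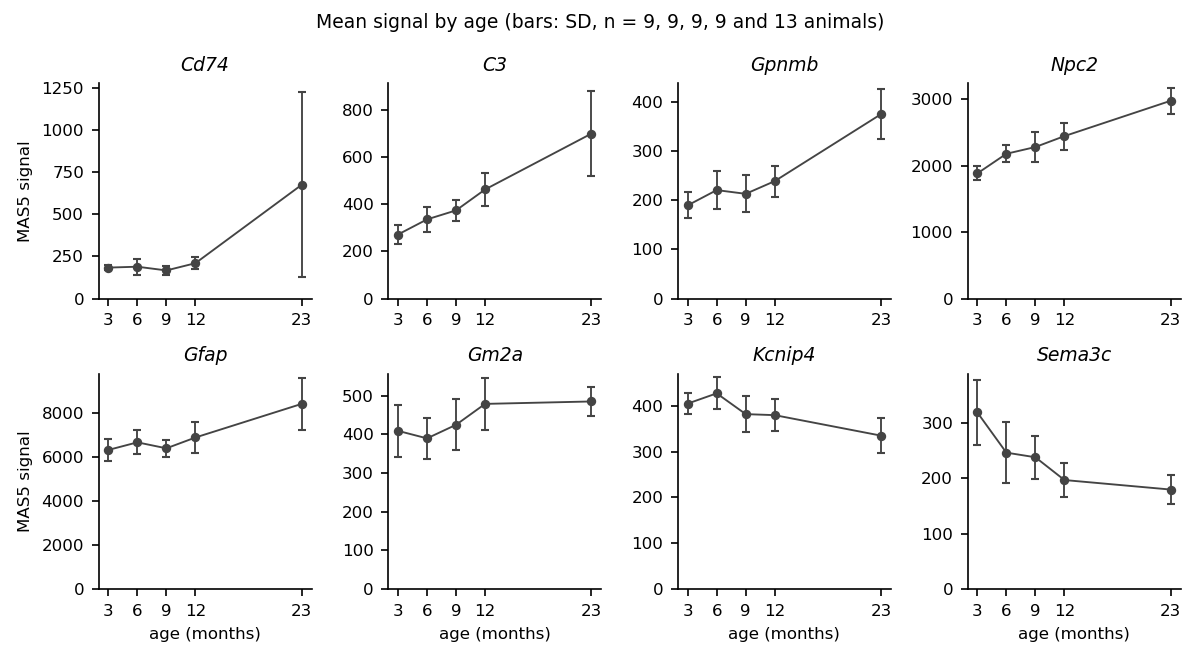
Mean MAS5 signal of 8 genes at 3, 6, 9, 12 and 23 months (bars, SD; 9 animals at each of the first 4 ages and 13 at 23 months). The means of Cd74, C3, Gpnmb, Npc2 and Gfap are highest at 23 months, those of Gm2a at 12 and 23 months are close, and those of Sema3c and Kcnip4 are lowest at 23 months.

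The rises were spread over the old animals. Each of the 13 lay above the 6-month mean for between 95 and 101 of the 101 rises and below it for between 13 and 16 of the 16 falls, which describes genes chosen on these animals. The median rise of an animal over the 6-month mean ran from 0.26 for replicate 7 to 0.50 for replicate 5. Replicate 9, with its high class II and complement signals, had the highest signal for 23 of the 101 rises, yet its median rise of 0.41 lay within the range of the others. Replicate 8 was highest for Gfap, Vim, B2m, Psmb9 and Serping1 and was also the animal of highest Hbb, and the part of blood in the tissue in these values was not tested. The SD of log2 signal was larger at 23 than at 6 months for 60 of the 101 rises, with medians of 0.20 at 23 months and 0.17 at 6 months, and for 52.7% of all genes tested.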

How the data were processed

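The deposited values are linear microarray intensities, 1 per probe set and array, that the authors computed with MAS5, per the submitters' processing notes, and scaled so that each array meets a target mean of 500 (stated in the design text). Its version is not given in the sources used here. From the deposited intensities log2 values were taken after signals under 16 were set to 16 (0.048% of the tested values of the 22 arrays). No normalization was added. Of 15923 probe sets 57 were controls; 12783 others had 1 gene symbol in the platform annotation, 312 had several and 2822, some controls included, were not listed. Current symbols came from the RefSeq gene table of GRCr8 by Entrez ID (12748 matched). The probe set of highest mean represented each of 10411 genes, of which 8093 passed the filter of 100 on 5 arrays.

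Tests used R 4.3.3 and limma 3.58.1 (lmFit; eBayes with its trend option), fitting the 49 arrays together with 1 mean for each age, where the design text names an analysis of variance. p-values were adjusted by the Benjamini-Hochberg method over the 8093 genes, and called genes are those with an adjusted p under 0.05. A log2 difference is 23 minus 6 months with its SE. The step was tested on simulated data. The RNA quality ratios were compared with a two-sided exact permutation test over 497420 regroupings. The precision is limited by the number of arrays. No per-sample column was left unused (0), and no 2 of 1176 pairs of arrays were alike.

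The comparison, the 42 gene lists and the tests were chosen with earlier results of these data known. The rule for named genes took the 20 largest rises, all 16 falls, up to 5 called members of each list, the 2 uncalled members of each list with the smallest p, 8 genes called against 6 and not 3 months, 8 called against 3 months with the largest p against 6 months, and Ttr, Hbb, Prox1, Gfap, Wfs1, Sema3c and Homer1. Alternatives covered the arrays in the fit, the floor, the signal filter, the scaling, the probe sets, array weights, the variance model, a replicate block and arrays left out. Presence calls, scan dates and behaviour scores were not used here, so scan batches were not tested.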

Additional observations from a re-analysis of the deposited data

Results flagged for a closer look

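Among the 155 named genes, 14 had 1 animal of 6 months set apart from the other 8 by a gap to its neighbour that is large against the group's range (Dixon's criterion), which chance exceeds in about 5% of groups. The group of 23 months was too large for this test. The array of 6 months replicate 3 was highest for 4 of them, at a signal of 292 for Cd74 (others 144 to 212), 484 for C1qc (278 to 378), 556 for RT1-DMb (333 to 438) and 368 for Ifitm2 (169 to 261). Cd74 and C1qc rose at 23 months although this animal raises the 6-month mean. Replicate 5 was highest for Apod, an apolipoprotein (2936.5, others 2265 to 2599), and for Gpx1 (2089, others 1305 to 1686). Replicate 9 was highest for Stat3 (538, others 222 to 357.5) and for the calcium release channel Ryr2 (210.5, others 64.8 to 129). Replicate 2 was highest for the growth factor Mdk (734, others 507 to 598) and for Hbb (64.4, others 14.6 to 27.7). Replicate 1 was highest for Homer1 (2232, others 1725 to 1903) and lowest for Psmb9 (59.3, others 87.0 to 109). Replicate 7 was highest for the vesicle protein gene Rab3a (3469, others 2786 to 3117), and replicate 4 for Serping1 (194, others 79.0 to 137).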

How the results depend on the processing

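The 117 calls became 88 in a fit of the 22 arrays of these ages alone (85 shared, 79 higher and 9 lower), 98 with the replicate number as a block (81 shared, 84 higher and 14 lower), 95 with each array centred on its median, 88 without 23 months replicates 5 and 8, and 107 to 125 under the floor, filter, quantile, variance model and array weight alternatives, 122 without the 3-month arrays and 123 over every probe set. Without each animal in turn they ranged from 84 to 130, with 75 to 112 rises and 8 to 23 falls; the falls numbered 9 without 23 months replicate 5, 8 without 6 months replicate 5 and 9 without 6 months replicate 8, all fits with fewer arrays. Of the 117 genes 69 were called without each animal in turn (64 rises, 5 falls) and 52 under every setting (48 and 4), and no called gene that is named changed sign. The replicate numbers gave little sign of pairing: over 8 shared numbers the correlation of deviations ran from −0.064 to 0.36. Only the pair of replicate 1 exceeded 0.1, and 1 array correlated best with its own number. A scan batch shared by number was not tested. Among genes not called, Sparcl1 was −0.021 under quantile normalization, Ttr −0.15 and Prox1 −0.12 with the replicate block, and Slc4a1 0.068 with array weights. Without single animals Prox1 (0.028 with all animals) ran from −0.0996 to 0.12 and Slc4a1 (−0.11 with all animals) from −0.29 to 0.031. The GAPDH difference was −0.0014 with the middle probe set (p = 0.957, exact permutation test). Signals under about 100, as for RT1-Bb, Trip13 and Car3, are limited by background that could not be assessed without presence calls.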
